A study of Homo sapiens with 64 samples.

Results

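Budesonide was compared with no treatment after 2 h in BEAS-2B, a line of human bronchial epithelial cells immortalised with viral sequence. The comparison took 8 of the 64 arrays of the series: the 4 labelled as budesonide at 2 h against the 4 labelled as untreated at 2 h. Treated cells received budesonide at 100 nM, untreated cells received no drug, and both had spent the night before in medium without serum, so all levels below are those of serum-starved cells. Other arrays of the series held cells given formoterol at 10 nM, or both drugs, and cells collected after 1, 6 and 18 h, again with 4 arrays per group. The submitters call the 4 arrays of a group independent determinations and number them 1 to 4. Cells of 1 line stand for the bronchial epithelium here, and there were no differentiated airway cells and no donors.

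Budesonide is an inhaled corticosteroid used in asthma. It enters the cell and binds the glucocorticoid receptor, the product of NR3C1, which leaves its chaperones, moves to the nucleus and binds DNA. The receptor switches on genes such as those for feedback inhibitors of inflammatory signalling, and reduces the output of genes driven by AP-1 and NF-kappaB, the transcription factors behind many cytokines. The bronchial epithelium is a main target of inhaled steroids and a source of cytokines in asthma.

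Levels are log2 expression values per probe set, so that a difference of 1 is 2-fold, and changes are budesonide minus untreated, given with the standard error of the fit. A gene was called changed when its adjusted p was under 0.05 by limma, a linear model with moderated variances, with Benjamini-Hochberg adjustment over 18132 genes. Here "rose" and "fell" are used of such genes. Array medians at 2 h lay between 4.87 and 4.92. The residual spread was highest on replicate 3 of both groups, with an SD over genes of 0.185 in untreated and 0.183 in budesonide cells, against 0.135 to 0.167 on the other 6 arrays. The same 2 arrays had the largest signal difference between the 3' and 5' beta-actin probes, 1.35 and 1.496, a measure of RNA and labelling quality that did not separate the groups, since the other untreated arrays gave 0.765 to 1.34 and the other budesonide arrays 0.522 to 1.30.

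Epithelial and mesenchymal markers both gave signal in this line. Keratins KRT18 and KRT8 had untreated means of 11.38 and 9.58, but EPCAM and ESRP1 lay at 2.60 and 2.55, under 3.02, the lower quartile of the deposited signals, and the mesenchymal filament gene VIM lay at 13.06. SCGB1A1, a marker of secretory airway cells, was at 2.75, and the leukocyte marker PTPRC at 2.03. Below the lower quartile in both groups were 2 of 14 measured epithelial markers and 2 of 8 of differentiated airway epithelium. It was 3 of 12 for fibroblasts and smooth muscle, 5 of 9 for leukocytes and 2 of 7 for endothelium. A level above this quartile does not show that a marker is expressed. The log2 of the summed signal of a list was 12.29 to 12.40 for epithelium and 13.31 to 13.41 for fibroblasts and smooth muscle in untreated arrays. It was only 7.27 to 7.38 for differentiated airway epithelium, 7.03 to 7.27 for leukocytes and 6.40 to 6.71 for endothelium. None of the 50 measured genes of the lists for epithelium, differentiated airway epithelium, fibroblasts and smooth muscle, leukocytes and endothelium was called by limma. At an unadjusted p under 0.05, 2 were higher and 1 lower, all of them epithelial, whereas 2061 genes of the whole table passed that level. With the replicate number as a block, 1 epithelial gene rose and 1 fibroblast gene fell. Since these are bulk samples, fewer cells of a type and less RNA per cell cannot be told apart.

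After 2 h, 715 of the 18132 genes tested had changed, 3.94% of them. Of these, 306 rose (1.69%) and 409 fell (2.26%). Fewer genes rose than fell, but those that rose changed by more: the median change was 0.77 among the genes that rose and -0.44 among those that fell. A change of at least 2-fold was seen for 107 genes that rose and 38 that fell. Changes above 3 on the log2 scale, 8-fold, occurred in 9 genes, all of them raised, and 18 more rose by between 2 and 3. Among the genes that fell, 5 changed by between 2 and 3 and none by more.

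**Figure D1:**
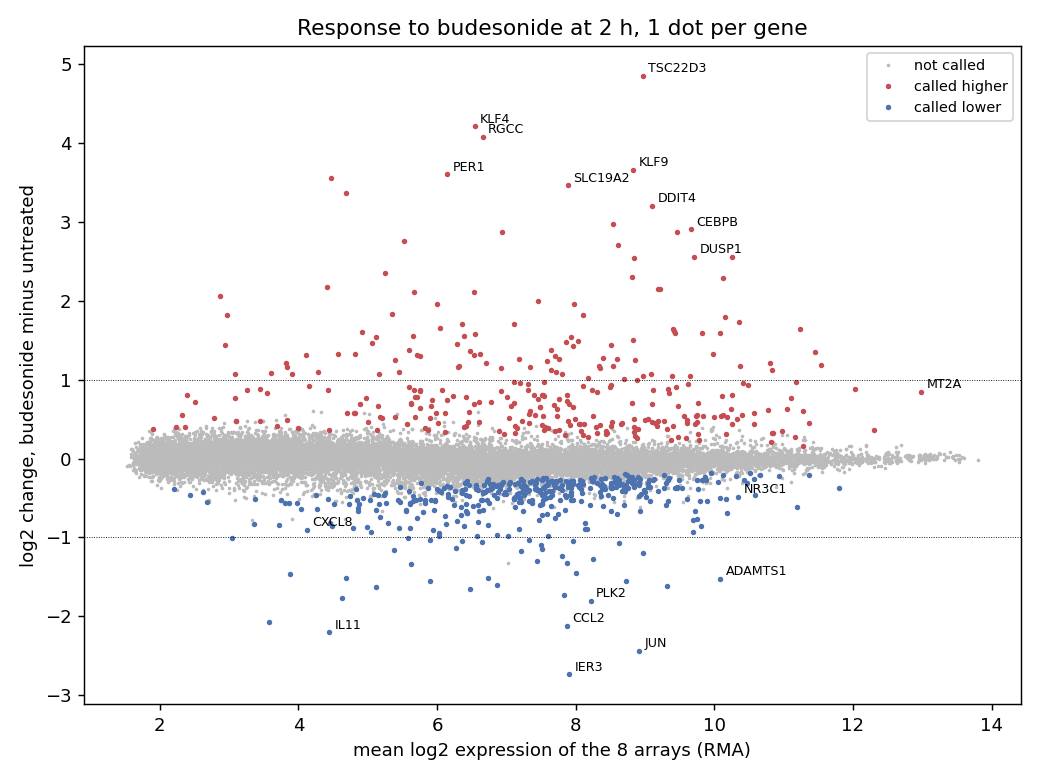
Change with budesonide at 2 h (log2, budesonide minus untreated, vertical axis) against the mean level of the 8 arrays (log2, horizontal axis), 1 dot per gene. Red dots are the 306 genes called higher, blue dots the 409 called lower, and dotted lines mark a 2-fold change. TSC22D3 lies highest at 4.86 and IER3 lowest among the named genes at -2.74.

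The same 8 arrays that gave the calls were also viewed singly, so the gaps below are a description. All 4 budesonide arrays lay above all 4 untreated arrays for 283 of the 306 genes that rose, and below them for 321 of the 409 that fell. Such a gap in the same direction was found for 2.93% and 3.82% of all genes tested. Most genes that rose were already expressed: 18 of the 306 had an untreated mean below the lower quartile, and their median untreated level was 7.17, against 7.67 for the genes that fell. Same-numbered arrays of the 2 groups deviated together from their group means, and with the replicate number as a block 1379 genes were called, 446 higher and 933 lower, including all 715. The share of calls that were higher was 42.8% without the block and 32.3% with it, so lower calls were in excess in both fits, more so with the block. This excess turned round when the 8 arrays were fitted alone, with 436 calls of which 55.3% were higher. It also did with the mean of each gene's probe sets, with 565 calls and 51.15%.

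**Figure D2:**
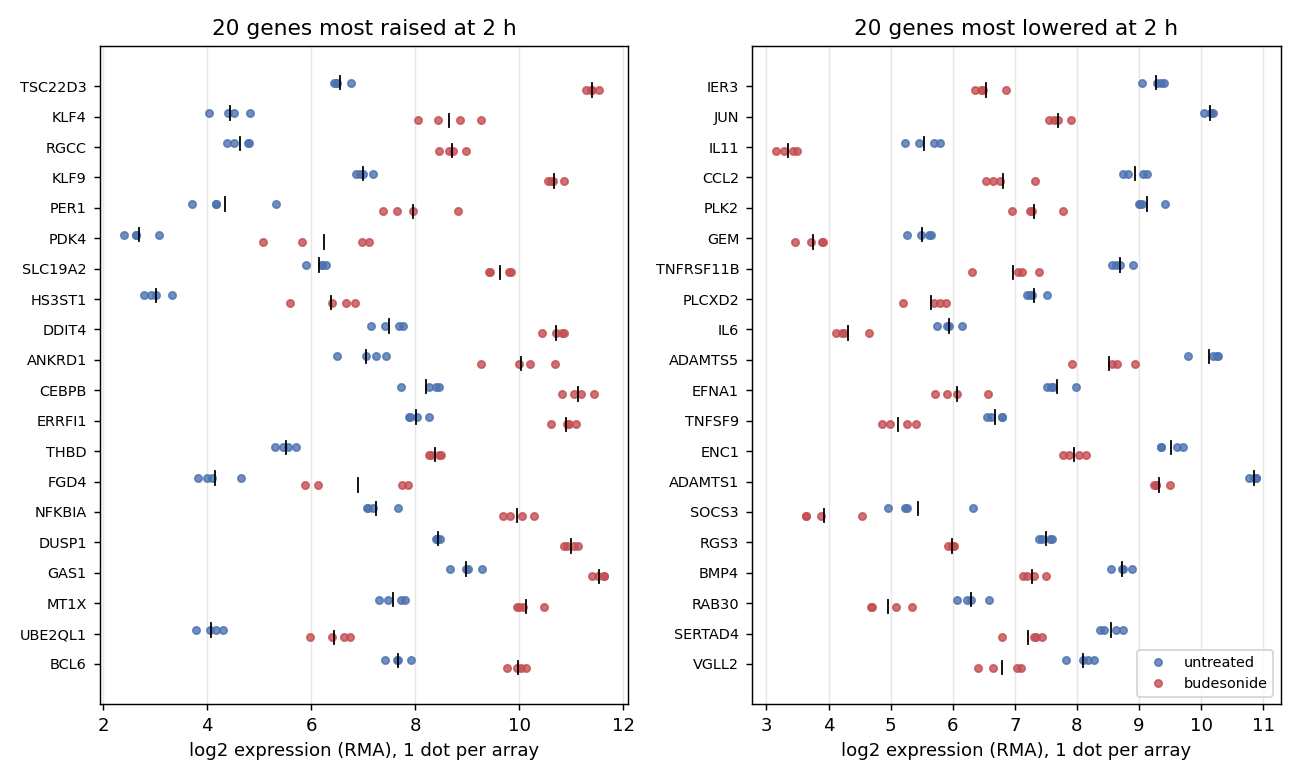
Log2 expression in each of the 8 arrays (horizontal axis) for the 20 genes raised most and the 20 lowered most by the naming rule. Blue dots are the 4 untreated and red dots the 4 budesonide arrays, and black bars are group means. The naming rule takes only genes whose groups do not overlap, so the gap in all 40 follows from the rule.

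The largest change was that of TSC22D3, whose product GILZ is a leucine zipper protein that restrains NF-kappaB and AP-1. Its level was 6.49, 6.48, 6.44 and 6.77 in untreated replicates 1 to 4, and 11.38, 11.53, 11.29 and 11.40 with budesonide. The lowest treated array thus lay far above the highest untreated one. The change was 4.86 ± 0.11, or 28.9-fold (limma adjusted p = 1.68e-42), and its 3 probe sets changed by 3.40 to 5.11.

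Gene lists are used from here on, all chosen with earlier results of these data known, so their counts are descriptions. Of all genes tested, 1.69% rose and 2.26% fell, and list counts are to be read beside these shares. The list of glucocorticoid-induced genes, chosen with earlier results of these data known, had 34 measured members, of which 26 rose and 0 fell by limma, with the same numbers at an unadjusted p under 0.05. Their median change was 1.62, against -0.0105 for all genes tested, and 25 of the 26 calls were kept in each of 16 alternative fits. The 8 others were TFCP2L1, ANGPTL4, DNAJC15, ZBTB16, RASD1, ANXA1, CIDEC and AKAP13, with changes from -0.21 to 0.25. FKBP5, a co-chaperone that lowers the receptor's affinity for its hormone, rose from 9.11, 9.13, 8.92 and 8.93 to 10.46, 10.95, 10.55 and 10.49, a change of 1.59 ± 0.11 with no overlap. PER1, a clock gene and direct target of the receptor, was at 4.17, 3.71, 5.32 and 4.17 without the drug and at 7.96, 7.38, 8.82 and 7.66 with it. Replicate 3 was highest in both groups for this gene, and the change was 3.61 ± 0.28. Its 3 probe sets changed by 0.11 to 3.61, so the size rests on the brightest one. NR3C1 itself fell: its level was 10.49, 10.49, 10.67 and 10.71 untreated and 10.24, 9.88, 10.24 and 10.06 with budesonide, a change of -0.48 ± 0.085 (limma adjusted p = 0.0000328). Among the other receptor chaperones, coactivators and steroid dehydrogenases, HSP90AA1, HSP90AB1, PTGES3 and FKBP4 had changes of -0.018, -0.041, 0.0001 and -0.067 and were not called.

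Several families of transcription factors had members that rose. Krüppel-like factors, zinc finger proteins that bind GC-rich promoters, had 6 of 15 members called higher and 1 lower, or 2 lower with the replicate block. Without the block, 46.7% of this family was called, against 3.94% of all genes. KLF4, a factor in epithelial differentiation and stem cells, stood at 4.51, 4.40, 4.81 and 4.02 in untreated cells and at 8.85, 8.43, 9.27 and 8.06 with budesonide. The groups were separated by over 3 log2 units, and the change was 4.22 ± 0.24, or 18.6-fold. KLF9, a steroid-induced repressor of growth, went from 6.95, 6.86, 7.18 and 6.997 to 10.85, 10.65, 10.60 and 10.54, a change of 3.67 ± 0.14. One of its 4 probe sets changed by only 0.20 and another by 3.82. KLF15, a steroid target in metabolism, rose by 1.96 ± 0.14, KLF6 by 1.80 ± 0.21 and KLF7 by 1.18 ± 0.12. The calls of KLF10 (0.45) and KLF2 (-0.59) were the ones not kept in all 16 alternative fits.

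CEBPB and CEBPD, C/EBP factors of the acute phase and fat cell programmes, rose by 2.91 ± 0.16 and 1.51 ± 0.18. For CEBPB the untreated arrays were at 8.39, 8.26, 8.46 and 7.72 and the treated ones at 11.18, 11.04, 11.44 and 10.81. Replicate 4 was the lowest in both groups and the groups did not overlap. Their stress-induced relative DDIT3, also known as CHOP, fell by 0.65 on the log2 scale, and with the block 2 of the 7 family members fell. BCL6, a BTB-domain repressor, was at 7.65, 7.91, 7.42 and 7.66 and 10.12, 9.95, 9.77 and 10.03, a change of 2.30 ± 0.10. In its list of repressors with BTB or PR domains, 2 of 15 rose and 2 fell, 26.7% called against 3.94% of all genes. The median change of that list was -0.083.

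Several immediate early genes, which answer growth and stress signals within minutes, went the other way. JUN, the main partner in AP-1, was at 10.15, 10.15, 10.19 and 10.04 in untreated cells and at 7.91, 7.69, 7.63 and 7.55 with budesonide. The untreated arrays were within 0.16 of one another, and the change was -2.44 ± 0.10 (limma adjusted p = 1.97e-29), with all 4 probe sets between -2.62 and -2.15. FOSL1, another AP-1 subunit, fell with a change of -1.06 ± 0.17, and FOSL2 rose by 1.05 ± 0.14. FOS, FOSB, JUNB and JUND, with changes of 0.0036, 0.10, 0.038 and -0.0061, were not called, so that 3 of 12 AP-1 subunits had changed. IER3, an early gene that modulates survival and NF-kappaB signalling, had the lowest change of the named genes. It was at 9.05, 9.28, 9.35 and 9.40 untreated and 6.49, 6.35, 6.45 and 6.85 with budesonide, a change of -2.74 ± 0.13. Of the 15 measured members of the list of other immediate early genes, 5 fell and 2 rose. IER2 fell with a change of -1.09 ± 0.083 and EGR1 with one of -0.96 ± 0.19, while MYC, the growth-promoting factor, rose by 0.79 ± 0.080 and the matricellular protein gene CCN2 by 1.18 ± 0.11.

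The NF-kappaB inhibitors NFKBIA and TNFAIP3 rose. NFKBIA encodes IkappaBalpha, which holds NF-kappaB in the cytoplasm. Its level was 7.67, 7.18, 7.09 and 7.06 in untreated cells and 10.28, 10.06, 9.82 and 9.68 with the drug, a change of 2.71 ± 0.14, and the 3 probe sets ran between 2.52 and 2.71. TNFAIP3, the ubiquitin-editing enzyme A20, was at 5.01, 5.71, 5.12 and 5.01 and 6.76, 7.18, 7.10 and 6.46. Replicate 2 stood above the other untreated arrays without reaching the treated ones, and the change was 1.66 ± 0.15. Among genes for nuclear IkappaB proteins, NFKBIZ, whose product is a coactivator of IL6, fell with a change of -0.91 ± 0.12. BCL3 fell with one of -0.93 ± 0.18. The BCL3 call was lost with the mean of its probe sets, whose change was -0.14. The subunits RELA, NFKB1, NFKB2, RELB and REL had changes of -0.0039, -0.21, -0.072, -0.074 and -0.35 and were not called in the fit without the replicate block. In all, 2 of 17 genes of this list rose and 2 fell, or 4 fell with the replicate block.

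Of 26 measured cytokine and chemokine genes, 6 fell and 0 rose by limma, with 1 higher at an unadjusted p under 0.05, and 1 rose with the block. The fall of CCL7, a relative of CCL2 below the lower quartile in both groups, was not kept in 8 of the 16 alternative fits. The list's median change was -0.0119, and 11 members lay below the lower quartile of the array in both groups, where a fall would be hard to see. IL11, a cytokine of the IL6 family linked to fibrosis, was at 5.23, 5.69, 5.46 and 5.79 without and 3.42, 3.29, 3.15 and 3.49 with budesonide. Every treated array lay at least 1.7 log2 units below every untreated one, and the change was -2.20 ± 0.20, with 3 probe sets between -2.20 and -0.33. CCL2, which draws monocytes, was at 8.74, 9.06, 9.13 and 8.82 and 6.76, 6.54, 7.32 and 6.65, a change of -2.12 ± 0.16. For IL6, the acute phase cytokine, the values were 5.90, 6.14, 5.93 and 5.75 untreated and 4.66, 4.25, 4.21 and 4.12 treated. The change was -1.62 ± 0.19 without overlap, though its other probe set gave 0.25. LIF, from the same family, was at 6.30, 6.50, 6.82 and 6.40 and 5.60, 5.59, 5.67 and 5.39 and changed by -0.94 ± 0.16. The neutrophil chemokine gene CXCL8 changed by -0.90 ± 0.18 from a low level, and by -0.24 with the mean of its probe sets, where the call was lost. IL12A, a subunit gene of interleukin 12 that is outside the list and was picked after its values were seen, rose. It was at 4.66, 4.79, 4.29 and 4.72 untreated and 6.79, 6.68, 6.91 and 6.53 with budesonide, a change of 2.11 ± 0.14 whose call was kept in all 16 alternative fits. CXCL1, CXCL2 and CXCL3, with changes of -0.022, -0.23 and -0.035, were not called.

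Genes that act on cytokine signals and mRNAs changed in both directions. ZFP36, which encodes tristetraprolin and promotes decay of cytokine mRNAs, was at 8.13, 8.31, 8.24 and 7.87 untreated and 10.36, 10.40, 10.26 and 10.14 treated. It rose by 2.16 ± 0.12, and its relatives ZFP36L2 and ZFP36L1 by 0.96 ± 0.086 and 0.76 ± 0.078. These were the 3 of 11 mRNA decay regulators that rose. None of the 11 fell by limma, with 2 lower at an unadjusted p under 0.05, but with the replicate block 3 did. SOCS2, an inhibitor of growth hormone signalling, rose by 1.54 ± 0.20, whereas SOCS3, an inhibitor of IL6-type signalling, was at 4.96, 5.26, 6.33 and 5.23 and 3.64, 3.64, 4.54 and 3.87. Replicate 3 was the highest of each group, and the change was -1.52 ± 0.23, while the other probe set gave -0.038. TNFRSF11B, the decoy receptor osteoprotegerin, was at 8.91, 8.69, 8.62 and 8.56 and 7.38, 6.31, 7.05 and 7.12, a change of -1.73 ± 0.19. TNFSF9, the ligand of a T cell costimulator, fell with a change of -1.56 ± 0.14. Of 19 interferon-stimulated genes, 2 fell and 0 rose by limma, with 0 higher also at an unadjusted p under 0.05. Calls thus made up 10.5% of this list, against 3.94% of all genes. The 2 were IFIT2, an early antiviral gene, with a change of -1.13 ± 0.26 and the transcription factor gene IRF1 with one of -0.81 ± 0.11. The median of this list was -0.34, though the other 17 genes were not called by limma.

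Of 17 feedback inhibitors of growth factor and MAP kinase signalling, 6 rose and 2 fell, 47.1% called against 3.94% of all genes. DUSP1, the phosphatase that switches off p38 and JNK, was at 8.39, 8.42, 8.42 and 8.47 in untreated cells and 11.06, 10.91, 11.13 and 10.86 with budesonide. The untreated arrays lay within 0.1 of one another, and the change was 2.56 ± 0.092, or 5.9-fold. ERRFI1, an inhibitor of the EGF receptor, was at 7.89, 8.03, 8.27 and 7.87 and 10.95, 10.92, 11.09 and 10.62 and rose by 2.88 ± 0.12. SPRY1 and SPRY2, inhibitors of Ras signalling, rose by 1.15 ± 0.11 and 0.51 ± 0.12, the latter call being lost without budesonide replicate 3 (0.43), and the phosphatase genes DUSP10 and DUSP5 by 0.74 ± 0.13 and 0.69 ± 0.14. DUSP4 and DUSP14 fell, with changes of -0.52 ± 0.086 and -0.54 ± 0.075. Among the EGF family, the ligand gene HBEGF fell with a change of -0.90 ± 0.15, the 1 call in 11 genes, with 2 under the replicate block. FGF5, a growth factor of the hair cycle, fell with a change of -1.05 ± 0.17, while EDN1, the vasoconstrictor endothelin, rose by 0.80 ± 0.15. In the list of growth and neurotrophic factors 2 of 17 rose and 5 fell, 41.2% called.

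In the TGF-beta and BMP pathway 3 of 23 members rose and 5 fell, 34.8% called against 3.94% of all genes. BMP4, a ligand, was at 8.73, 8.89, 8.74 and 8.55 without and 7.30, 7.20, 7.50 and 7.12 with budesonide, a change of -1.45 ± 0.10. Its antagonist NOG fell with a change of -1.04 ± 0.17, the pseudoreceptor gene BAMBI with one of -1.23 ± 0.090 and the ubiquitin ligase gene SMURF2 with one of -0.78 ± 0.14. TGFBR2, the type II receptor, was at 8.49, 8.66, 8.68 and 8.38 and 9.53, 9.88, 9.74 and 9.35 and rose by 1.07 ± 0.11, and the coreceptor gene TGFBR3 by 1.28 ± 0.13. The inhibitory SMAD genes were called in opposite directions, SMAD7 at 0.69 ± 0.16 and SMAD6 at -1.01 ± 0.28. Neither call was kept with the mean of a gene's probe sets (0.19 and -0.39), and that of SMAD6 was also lost without budesonide replicate 2 (-0.89) or 3 (-0.85) and without untreated replicate 1 (-0.94) or 4 (-0.88).

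RGCC, a regulator of the cell cycle, was at 4.38, 4.79, 4.80 and 4.52 untreated and 8.45, 8.97, 8.72 and 8.65 treated, a change of 4.08 ± 0.18 or 16.9-fold. The DNA damage and growth arrest genes GADD45A and GADD45B rose by 1.65 ± 0.091 and 0.97 ± 0.059. CDKN1C and CDKN1A, inhibitors of cyclin-dependent kinases, rose by 1.38 ± 0.25 and 0.55 ± 0.11, and CDKN1B, which has the same role, fell with a change of -0.53 ± 0.12. In this list of 17 genes, 5 rose and 3 fell. The cell division genes themselves were near the background: 1 of 24, 4.17%, was called lower and 0 higher by limma, with 1 higher and 2 lower both at an unadjusted p under 0.05 and with the block. The 1 gene was AURKA, a mitotic kinase gene, whose change of -0.22 ± 0.064 was not called in 9 of the 16 alternative fits.

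DDIT4, or REDD1, an inhibitor of the growth kinase complex mTORC1, was at 7.76, 7.69, 7.14 and 7.41 and 10.86, 10.81, 10.43 and 10.71. All 4 treated arrays lay above 10.4, and the change was 3.20 ± 0.15. IRS2, an adaptor of the insulin receptor, was at 8.12, 7.93, 8.33 and 8.06 and 10.43, 10.19, 10.59 and 9.84 and rose by 2.16 ± 0.11. The forkhead factor genes FOXO1 and FOXO3, held in the cytoplasm by insulin signalling, rose by 2.00 ± 0.12 and 0.95 ± 0.14, and PIK3R1, a regulatory subunit of PI 3-kinase, by 0.94 ± 0.13. The 4 probe sets of FOXO1 changed by 0.0625 to 2.00. SESN2, a stress-induced inhibitor of mTORC1, fell with a change of -0.74 ± 0.10. These are 5 of 19 genes of the list that rose, against 2 that fell, or 4 with the block. PDK4, which turns cells from glucose to fat by inhibiting pyruvate dehydrogenase, was at 2.63, 2.39, 3.08 and 2.63 in untreated cells, in 3 of 4 arrays below the lower quartile, and at 6.97, 7.11, 5.83 and 5.07 with budesonide. Replicates 1 and 2 were over 1 log2 unit above replicates 3 and 4 in the treated group, and the change was 3.56 ± 0.39. Its other probe set changed by 0.54. Also in the fasting list, GLUL, or glutamine synthetase, rose by 1.12 ± 0.10, the lipid droplet gene PLIN2 by 0.93 ± 0.072 and the acyl-CoA synthetase gene ACSL1 by 0.91 ± 0.10. Altogether 5 of 21 rose and 1 fell, PFKFB3 at -0.28, whose call was not kept in all 16 alternative fits, and PCK1, with a change of -0.011, was not called.

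SLC19A2, a thiamine transporter, was at 6.21, 5.91, 6.28 and 6.21 untreated and 9.79, 9.41, 9.84 and 9.43 treated, a change of 3.47 ± 0.13, and all 3 of its probe sets gave 3.47. The related SLC19A1 and SLC19A3 had changes of 0.014 and -0.009 and were not called. In the solute carrier list 2 of 14 rose and 3 fell, with 4 higher under the block, and the calls of SLC38A2, SLC25A25 and SLC20A1 were not kept in all 16 alternative fits. Metallothioneins, small proteins that bind zinc and copper, had 4 of 10 listed genes higher and 1 lower. The lower call, of the metal-sensing factor gene MTF1 at -0.36, was not kept in 3 of the 16 alternative fits. MT1X rose by 2.55 ± 0.15, MT1E by 1.43 ± 0.11, MT2A by 0.85 ± 0.062 and MT1B by 0.58 ± 0.12. MT2A was the brightest, at 12.46, 12.68, 12.53 and 12.59 untreated and 13.34, 13.47, 13.44 and 13.39 treated, and the groups did not overlap. These near-identical genes may share probe signal. SGK1, the kinase that raises sodium channel activity, was at 8.71, 9.10, 9.13 and 8.96 and 11.35, 11.14, 11.44 and 11.11 and rose by 2.29 ± 0.12. The channel subunits SCNN1A, SCNN1B and SCNN1G, with 0.37, 0.022 and 0.13, were not called. The alpha-arrestin gene ARRDC2 rose by 1.16 ± 0.12 and ARRDC4 fell with a change of -1.05 ± 0.12.

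Of the clock genes, PER1, NFIL3 (0.92 ± 0.10) and CIART (0.69 ± 0.15) rose, 3 of 17. The 1 that fell was BHLHE40 at -0.88, whose call was not kept in all 16 alternative fits, and 3 fell with the block. Without the block, 23.5% of this list was called, against 3.94% of all genes. PER2, PER3, CRY1 and CLOCK, with changes of -0.19, -0.094, 0.035 and -0.34, were not called in that fit. Regulators of G-protein signalling, which shorten receptor signals, had 1 of 14 higher and 3 lower, of which RGS7 (-0.49) and RGS20 (-0.37) did not keep their calls in all 16 alternative fits. RGS2, which acts on Gq, was at 7.22, 7.41, 7.31 and 7.20 and 8.58, 9.15, 8.79 and 8.60 and rose by 1.49 ± 0.11. RGS3 was at 7.39, 7.60, 7.44 and 7.57 and 5.98, 6.01, 6.01 and 5.92, a change of -1.52 ± 0.094 with treated arrays within 0.1 of one another, although another of its 4 probe sets gave 0.17. PDE4B, which degrades cyclic AMP, was at 4.65, 4.55, 4.40 and 4.87 in untreated cells and 2.76, 2.48, 2.55 and 2.40 with budesonide. The treated arrays were all below the lower quartile of the array, where the size of a fall is uncertain. The change was -2.07 ± 0.22 for this probe set and -0.67 with the mean of its 4 probe sets, of which another gave -0.079. In the list of cyclic AMP and CREB-induced genes 3 of 15 rose and 2 fell, or 4 with the block, and the immunoglobulin-like membrane protein gene CD200 rose by 1.30 ± 0.18.

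PTGER4 and PTGER2, receptors for prostaglandin E2, rose. PTGER4 was at 7.30, 7.30, 7.44 and 6.74 and 9.05, 9.10, 9.19 and 8.70, a change of 1.82 ± 0.15, and PTGER2 rose by 1.47 ± 0.20. PTGS2, the inducible cyclooxygenase gene, was at 2.61, 2.59, 2.59 and 2.39 in untreated cells and 3.77, 4.03, 3.48 and 3.20 in treated ones and rose by 1.08 ± 0.21 from a level below the lower quartile. One of its 3 probe sets gave 0.044. These 3 of 13 genes were the calls in the prostaglandin list, and ANXA1, a steroid-regulated inhibitor of phospholipase A2, had a change of -0.035. On the cell surface, THBD, the anticoagulant thrombomodulin, was at 5.31, 5.46, 5.55 and 5.70 and 8.46, 8.29, 8.49 and 8.25 and rose by 2.87 ± 0.14. PLAT, tissue plasminogen activator, rose by 1.62 ± 0.12 and the urokinase receptor gene PLAUR fell with a change of -0.99 ± 0.10. ANKRD1, a target of the coactivator YAP, was at 7.24, 7.04, 6.50 and 7.44 and 10.68, 10.20, 9.27 and 9.98. Replicate 3 was lowest in both groups, and the change was 2.97 ± 0.20. In the matrix list 2 of 27 rose and 1 fell (11.1% called, against 3.94% of all genes), with 2 lower under the block. HAS3, which makes hyaluronan, rose by 1.54 ± 0.21, and the protease gene ADAMTS1 was at 10.77, 10.84, 10.89 and 10.89 and 9.27, 9.24, 9.50 and 9.27, a change of -1.53 ± 0.10. Its relative ADAMTS5, which cleaves aggrecan, fell with a change of -1.61 ± 0.17. Collagens COL1A1, COL1A2, COL3A1, COL4A1 and COL4A2 and fibronectin, FN1, with changes from -0.24 to -0.0035, were not called.

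**Figure D3:**
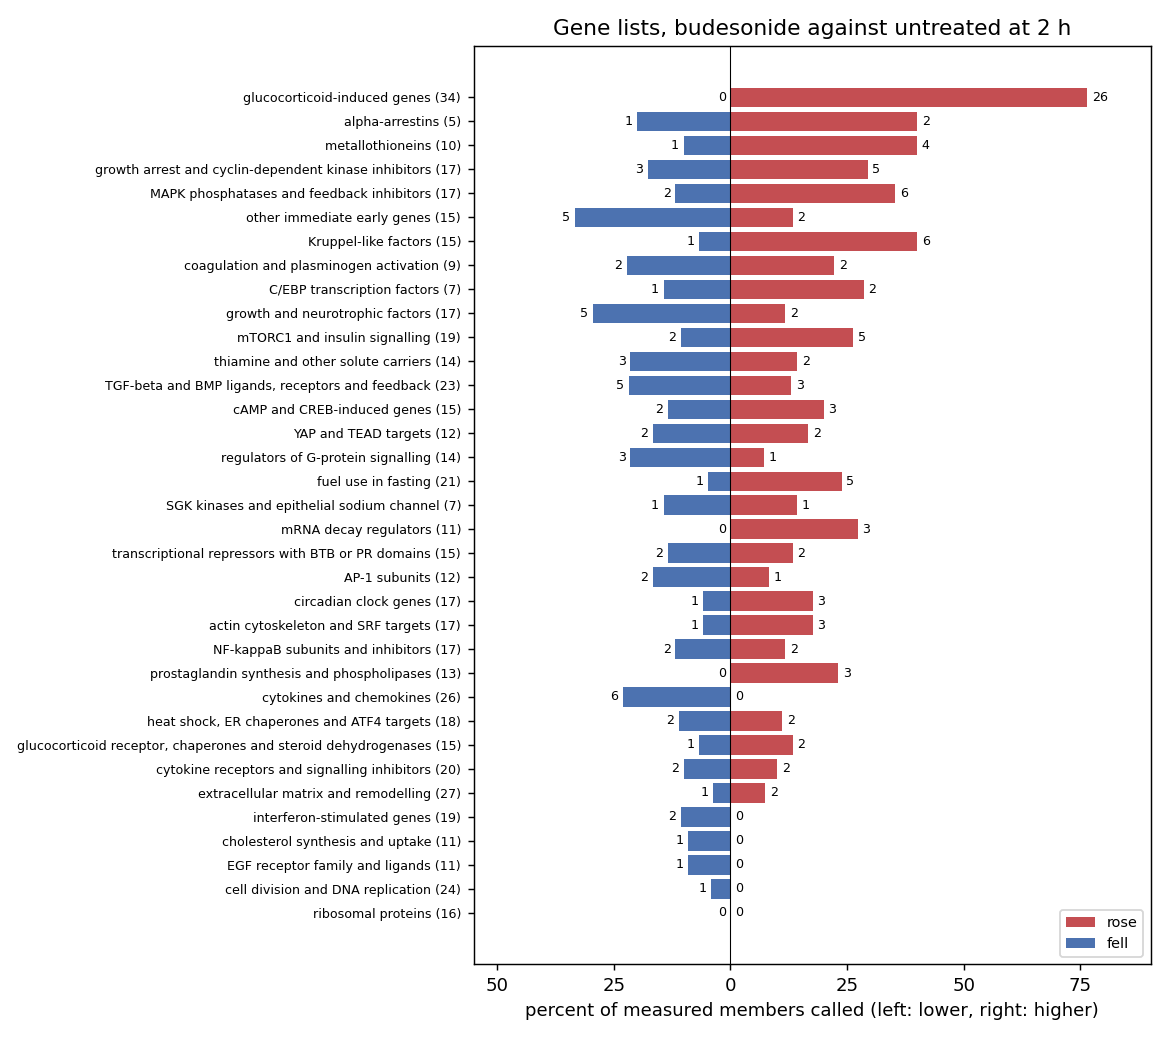
Share of the measured members of each gene list (number in brackets after its name) that rose (red, to the right) or fell (blue, to the left) with budesonide at 2 h, in percent, with the number of genes at the end of each bar. The glucocorticoid-induced list stands out with 26 of 34 genes higher, and the list of ribosomal proteins has no call.

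The 35 gene lists held 519 different measured genes, of which 138, or 26.6%, were called, against 3.94% of all genes. The lists were chosen with results of these data known, so this share is a description. Of the 138 calls, 102 were kept in all 16 alternative fits, and no called gene of the whole table changed sign in any. Beside the calls named as such at their values, those not kept in all of them were of NRIP1, ZBTB20, PRDM1, SRF, IL1R1, VEGFA, VEGFC, BDNF, KITLG, AJUBA, CCND1, DDIT4L, NEDD4L, AKAP12, FHL2, DNAJB1 and HERPUD1. Of 95 called genes with several probe sets that were followed singly, 29 had a change over 1.5 times smaller with the mean of their probe sets. Among those with values given here, the change became 2.19 for KLF9, 2.05 for PDK4, 1.93 for HS3ST1, 1.30 for PER1, 0.97 for PTGER2, 0.67 for TGFBR2, 0.66 for GLUL, 0.52 for PTGS2, 0.45 for HAS3 and 0.35 for ZFP36L1. Among genes that fell, it became -1.08 for IL11, -0.96 for PLCXD2, -0.78 for SOCS3, -0.72 for VGLL2, -0.69 for IL6, -0.65 for RGS3, -0.61 for EGR1, -0.42 for SESN2 and -0.35 for LIF. Ribosomal proteins had 0 of 16 genes called by limma, and 0 at an unadjusted p under 0.05, with changes between -0.02 and 0.07. The cholesterol synthesis list had 1 of 11 lower, INSIG1, with a change of -0.37 ± 0.078. In the list of heat shock, endoplasmic reticulum and ATF4 genes 2 of 18 rose and 2 fell, and neither rise was kept in all alternative fits.

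Among the 20 highest genes by the naming rule, 4 belonged to none of these lists. HS3ST1, a sulfotransferase of heparan sulfate, was at 3.31, 2.91, 2.78 and 3.02 untreated and 6.67, 6.84, 6.40 and 5.59 treated, a change of 3.37 ± 0.26. FGD4, an exchange factor for the GTPase CDC42, was at 4.65, 4.001, 4.10 and 3.81 and 7.86, 7.73, 5.88 and 6.14. The treated replicates 1 and 2 lay over 1.5 log2 units above replicates 3 and 4, and the change was 2.76 ± 0.31. GAS1, named for its expression in growth arrest, was at 9.28, 9.003, 8.67 and 8.97 and 11.63, 11.63, 11.51 and 11.39 and rose by 2.56 ± 0.14. UBE2QL1, a ubiquitin-conjugating enzyme homologue, rose by 2.36 ± 0.17, and TIPARP, a mono-ADP-ribosyltransferase outside the 20, by 1.73 ± 0.10. The rule asks for a group mean of at least 4.90, so PDE4B, although it fell by more than most of them, is not among the 20 lowest. Of these 20, PLK2, a stress-related polo-like kinase, was at 9.004, 9.01, 9.42 and 9.04 and 7.24, 6.96, 7.78 and 7.28, a change of -1.81 ± 0.16. GEM, a small GTPase that inhibits calcium channels, changed by -1.76 ± 0.19, and EFNA1, a membrane-bound ligand of Eph receptors, by -1.61 ± 0.19. ENC1, an actin-binding protein gene, was at 9.36, 9.71, 9.60 and 9.36 and 8.03, 7.77, 8.15 and 7.88, a change of -1.55 ± 0.091. The remaining genes that fell were PLCXD2 (-1.66 ± 0.17), RAB30, a GTPase of the Golgi (-1.34 ± 0.15), SERTAD4 (-1.33 ± 0.20) and VGLL2, a cofactor of TEAD factors (-1.29 ± 0.15). The naming rule was met by 96 genes that rose and 33 that fell, from which these 20 and 20 were taken. Of the 40, 28 had several probe sets, which ran in 1 direction for 26, the exceptions being IL6 and RGS3.

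Promoter sequence was set beside these changes because the receptor is known to bind DNA directly and to oppose AP-1. RefSeq windows on GRCh38.p14, from 250 bases before to 50 after the start site, matched 89 of the 107 genes raised and 26 of the 38 lowered at least 2-fold. The receptor's element was searched as GNACA, any 3 bases, then TGTNC, and AP-1's as TGANTCA, each on both strands. No window of the 89 or the 26 genes held the receptor element, which occurred in 57 of 14425 tested genes with a window (0.395%) and in 0.39% of all 35116 windows. Among all called genes it was in 2 of 254 that rose, EVA1C and TXNIP, and in 3 of 331 that fell, EPHA4, EVA1A and GATA2. The AP-1 element was in 8 of the 89 genes (8.99%) and 3 of the 26 (11.5%), against 1187 of the 14425 (8.23%) and 7.71% of all windows. Among all called genes it was in 30 of 254 that rose (11.8%) and 31 of 331 that fell (9.37%). These shares in genes that rose and in genes that fell were not tested against that of all genes, and short windows at the start site say nothing of distant binding.

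The 250 bases before the start site are printed for 1 gene that fell and 1 that rose and hold the AP-1 element, and for TXNIP, which holds the receptor element and was chosen after its values were seen. Capitals mark the match. The IL11 window is chr19:55370464-55370713, minus strand, with the match starting 96 bases before the start site. That of ANKRD1 is chr10:90921088-90921337, minus strand, with the match 195 bases before the start, and that of TXNIP is chr1:145996580-145996829, minus strand, 175 bases before the start.
IL11: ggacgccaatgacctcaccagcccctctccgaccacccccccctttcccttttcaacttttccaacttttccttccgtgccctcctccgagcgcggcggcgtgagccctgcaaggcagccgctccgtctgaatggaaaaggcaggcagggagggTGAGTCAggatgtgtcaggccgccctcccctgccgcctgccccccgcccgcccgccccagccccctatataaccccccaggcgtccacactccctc
ANKRD1: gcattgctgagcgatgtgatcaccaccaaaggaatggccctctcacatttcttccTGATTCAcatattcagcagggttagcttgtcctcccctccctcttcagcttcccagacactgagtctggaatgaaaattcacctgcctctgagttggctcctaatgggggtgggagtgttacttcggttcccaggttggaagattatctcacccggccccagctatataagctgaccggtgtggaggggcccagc
TXNIP: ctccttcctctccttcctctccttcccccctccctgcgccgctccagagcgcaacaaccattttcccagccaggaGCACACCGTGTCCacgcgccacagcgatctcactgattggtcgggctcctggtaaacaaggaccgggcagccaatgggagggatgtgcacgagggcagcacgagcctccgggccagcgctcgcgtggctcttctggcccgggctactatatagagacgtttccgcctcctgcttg
Beside these sequences stand changes of -2.20 ± 0.20 for IL11, 2.97 ± 0.20 for ANKRD1 and 0.61 ± 0.16 for TXNIP, an alpha-arrestin gene that limits glucose uptake. The TXNIP call was lost when budesonide replicate 1 (0.57), 2 (0.55) or 4 (0.56) or untreated replicate 3 (0.48) was left out, and with the 8 arrays fitted alone.

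The arrays at 1 h and 6 h, each with untreated cells of the same time, show where the 2 h response stands in time. At 1 h, 181 genes were called (0.998%), and at 6 h 2583 (14.2%). The genes changed at least 2-fold at 2 h were largely changed in the same direction at both times. Of the 107 that rose, 78 (72.9%) were called higher at 1 h and 98 (91.6%) at 6 h, where 0.667% and 6.12% of all genes were. Of the 38 that fell, 25 (65.8%) were called lower at 1 h and all 38 at 6 h, against 0.331% and 8.12% of all genes. Median changes of the 107 were 0.95 at 1 h, 1.47 at 2 h and 1.67 at 6 h, and those of the 38 were -0.61, -1.39 and -1.62. The genes were chosen on their 2 h values, which lifts the 2 h median. At 18 h, 78 of the 107 (72.9%) were called higher and 9 lower, against 8.56% and 9.78% of all genes, and all 38 that fell were called lower.

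The change itself differed between 1 and 2 h for 62 genes by limma (0.342% of those tested), in 39 toward higher and in 23 toward lower values. With the replicate block it differed for 209, though pairing at 1 h was not settled. Among the 107 genes that rose at least 2-fold, 27 had a larger rise at 2 h than at 1 h. The difference was not called for 80, which does not show that their rise was equal. Of the 38 that fell, 17 had a larger fall at 2 h and 21 were not called. Both sets were chosen on the same 2 h values, which tilts these counts toward larger changes at 2 h, so they are descriptions. FOXO1 changed by 0.32 ± 0.12 at 1 h and by 2.00 ± 0.12 at 2 h, a difference of 1.67 ± 0.17 (limma adjusted p = 9.76e-10). UBE2QL1 went from 0.52 ± 0.17 to 2.36 ± 0.17, EXPH5, a partner of RAB27B in vesicle traffic, from 0.34 ± 0.18 to 1.84 ± 0.18, and TGFBR3 from -0.065 ± 0.13 to 1.28 ± 0.13. CCL2 fell with changes of -0.61 ± 0.16 at 1 h and -2.12 ± 0.16 at 2 h, a difference of -1.51 ± 0.22 (limma adjusted p = 1.16e-05). Differences of TNFRSF11B and RAB30 were -1.27 ± 0.26 and -1.11 ± 0.21. FGD4, with a difference of 2.09 ± 0.44, lost its call without the 1 h budesonide replicate 4 (1.74) and with the compared arrays fitted alone (limma adjusted p = 0.22), and CRISPLD2, a secreted protein gene, with 1.82 ± 0.38, lost it with the mean of its probe sets (0.44). ADAMTS5 (-1.10 ± 0.25) was not called without budesonide replicate 2 at 2 h (-0.90), budesonide replicate 1 at 1 h (-0.998) or untreated replicate 2 at 1 h (-0.98), or with the compared arrays fitted alone (limma adjusted p = 0.106), nor PLCXD2 (-1.13 ± 0.24) without budesonide replicate 2 at 2 h (-0.98) or budesonide replicate 4 at 1 h (-0.99).

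Between 2 and 6 h, 906 genes differed in their change by limma (5.00%), 447 toward higher and 459 toward lower values. With the replicate block 1945 differed, though pairing at 6 h was not settled. Among the 107 genes raised at 2 h, 26 had a larger and 29 a smaller change at 6 h, and 52 were not called. These genes and the 20 highest were chosen on their 2 h values, which tilts such counts toward smaller changes at 6 h. Of the 20 highest, 9 had a smaller rise at 6 h, and KLF4 had the largest fall back among the named genes: 3.91 ± 0.24 at 1 h, 4.22 ± 0.24 at 2 h, 1.83 ± 0.24 at 6 h and 0.28 ± 0.24 at 18 h. The difference between 6 and 2 h was -2.38 ± 0.34 (limma adjusted p = 7.49e-07). CNR1, the cannabinoid receptor gene, was at 2.15, 1.59, 1.72 and 1.91 in untreated cells at 2 h and at 3.74, 4.18, 3.52 and 4.15 with budesonide. The untreated arrays all lie below the lower quartile of the array, a level not shown to be above background, so the exact size of a change from it is uncertain. The change of 2.06 ± 0.16 at 2 h was followed by 6.79 ± 0.16 at 6 h. The other probe set of CNR1 changed by 0.24 at 2 h. With the mean of its probe sets the difference between 6 and 2 h was 3.21, against 4.74 for the probe set used. MAP2, a microtubule-associated protein gene, had a change of -0.020 ± 0.16 at 2 h, where it was not called, and 3.78 ± 0.16 at 6 h. CACNA2D3, a calcium channel subunit gene, went from 0.83 ± 0.18 to 4.55 ± 0.18 and PLA2G4A, the cytosolic phospholipase A2 gene, from 0.42 ± 0.18, not called, to 3.57 ± 0.18. RERG, a Ras-related growth inhibitor, and SLC16A12, a monocarboxylate transporter family gene, had differences of 2.92 ± 0.26 and 2.90 ± 0.27. For RERG the means at 2 h, 2.15 untreated and 2.86 with budesonide, both lay below the lower quartile.

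Genes whose fall came mainly after 2 h included F3, tissue factor, the trigger of coagulation. Its level at 2 h was 11.60, 11.65, 11.51 and 11.23 untreated and 11.15, 10.97, 11.19 and 10.23 with budesonide, with treated replicate 4 the lowest. The change was -0.61 ± 0.17 at 2 h and -2.87 ± 0.17 at 6 h, a difference of -2.26 ± 0.24. The 2 h call of F3 was lost without budesonide replicate 4 (-0.39) and without untreated replicate 1 (-0.58), 2 (-0.56) or 3 (-0.61), and with the 8 arrays fitted alone (limma adjusted p = 0.123). NPPB, which encodes the natriuretic peptide BNP, went from -0.77 ± 0.16 to -2.95 ± 0.16, and EVA1A from -0.62 ± 0.11 to -2.94 ± 0.11. EPHA5, an Eph receptor gene, and FRMD4B, at -0.18 ± 0.16 and -0.22 ± 0.23, were not called at 2 h and were at -2.29 ± 0.16 and -2.25 ± 0.23 at 6 h. With the mean of probe sets, the difference between 6 and 2 h became 1.88 for CACNA2D3, 1.895 for RERG, -1.16 for EPHA5 and -0.66 for FRMD4B, and that between 2 and 1 h became 1.10 for FOXO1 and -0.62 for PLCXD2.

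**Figure D4:**
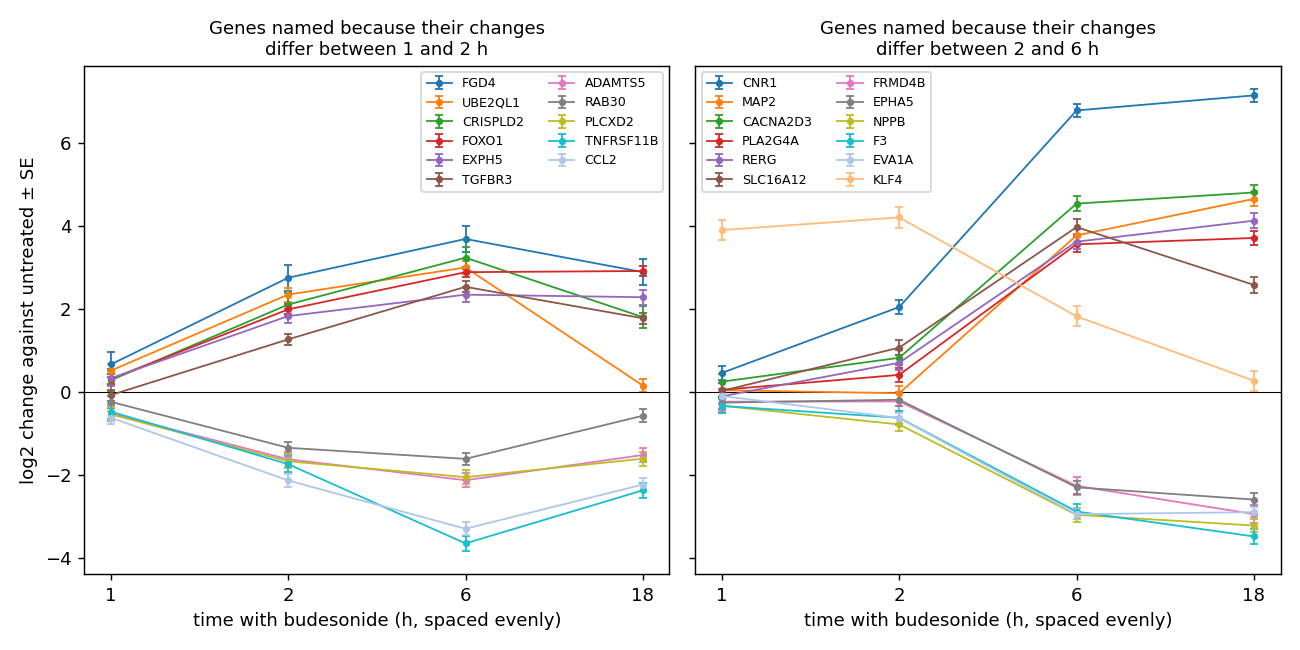
Log2 change with budesonide against untreated cells of the same time, with SE as error bars, at 1, 2, 6 and 18 h (evenly spaced) for the genes with the largest called differences between 1 and 2 h (left) and between 2 and 6 h (right). CNR1 climbs from 2.06 at 2 h to 6.79 at 6 h, and KLF4 declines from 4.22 to 1.83.

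The effect of budesonide was measured a second time at 2 h, in cells that also received formoterol, a long-acting beta2-adrenergic agonist that raises cyclic AMP. These 8 arrays, 4 with both drugs and 4 with formoterol alone, share no array with the comparison above. However, same-numbered arrays of all 4 groups at 2 h deviated together, with correlations of 0.269 to 0.575, and 1 fit gave both effects. The 2 measurements are therefore not shown to be independent. There budesonide changed 753 genes (4.15%), 415 higher and 338 lower, or 1219 with the replicate block. Of the 107 genes raised at least 2-fold without formoterol, 97 (90.7%) rose here too, against 2.29% of all genes, and of the 38 that fell 34 (89.5%) fell, against 1.86%. The median changes were 1.44 and -1.15, against 1.47 and -1.39 in the cells without formoterol on whose values the genes were chosen. TSC22D3 changed by 5.00 ± 0.11 with formoterol present, against 4.86 ± 0.11 without.

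The effect itself differed with formoterol for 107 genes by limma (0.590%), 65 toward higher and 42 toward lower values, and for 229 with the replicate block. SGK1 stood higher with either drug than without. Its mean level was 8.98 ± 0.19 (SD, n = 4) untreated, 11.26 ± 0.16 with budesonide, 11.95 ± 0.34 with formoterol and 11.99 ± 0.25 with both. Budesonide thus changed it by 2.29 ± 0.12 alone and by 0.036 ± 0.12 on top of formoterol, a difference of -2.25 ± 0.16 (limma adjusted p = 1.64e-15). KLF9 and DDIT4 also stood higher with either drug than without, but lower with formoterol than with budesonide: 6.995, 10.66, 9.08 and 10.87 for KLF9, and 7.50, 10.70, 9.16 and 10.87 for DDIT4, in cells given no drug, budesonide, formoterol and both. Their differences in effect were -1.87 ± 0.20 and -1.50 ± 0.22. FLRT3, an adhesion molecule gene, rose by 1.21 ± 0.21 with budesonide alone and changed by -0.51 ± 0.21, not called, with formoterol. With budesonide alone its 3 probe sets changed by 0.21 to 1.21.

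IL11 and IL6 stood higher with formoterol than without, and budesonide lowered them by more in its presence. IL11 had means of 5.54 ± 0.25 (SD, n = 4) untreated, 3.34 ± 0.15 with budesonide, 9.44 ± 0.12 with formoterol and 5.75 ± 0.42 with both. The budesonide effect was -2.20 ± 0.20 without and -3.69 ± 0.20 with formoterol, a difference of -1.48 ± 0.29. For IL6 the means in the same order were 5.93, 4.31, 9.32 and 5.69, and the difference was -2.003 ± 0.27 (limma adjusted p = 9.7e-07). With both drugs these genes stood near their untreated levels. PTGS2 moved the other way: its mean was 2.54 ± 0.10 (SD, n = 4) untreated, 3.62 ± 0.36 with budesonide, 2.85 ± 0.45 with formoterol and 6.32 ± 0.25 with both. Budesonide raised it by 1.08 ± 0.21 alone and by 3.47 ± 0.21 with formoterol, a difference of 2.39 ± 0.29. C11orf96, the neuronal pentraxin gene NPTX1 and RASD1, a steroid-inducible Ras-like gene, had changes of 0.49 ± 0.25, 0.14 ± 0.23 and 0.059 ± 0.15 with budesonide alone, none of them called. With formoterol they rose by 3.16 ± 0.25, 2.50 ± 0.23 and 1.97 ± 0.15. The arginine transporter gene SLC7A2 and SLC16A14 had differences of 1.64 ± 0.21 and 1.64 ± 0.27. With the mean of probe sets, the difference became 1.18 for PTGS2, 1.20 for NPTX1, -1.24 for IL6 and -0.94 for KLF9.

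**Figure D5:**
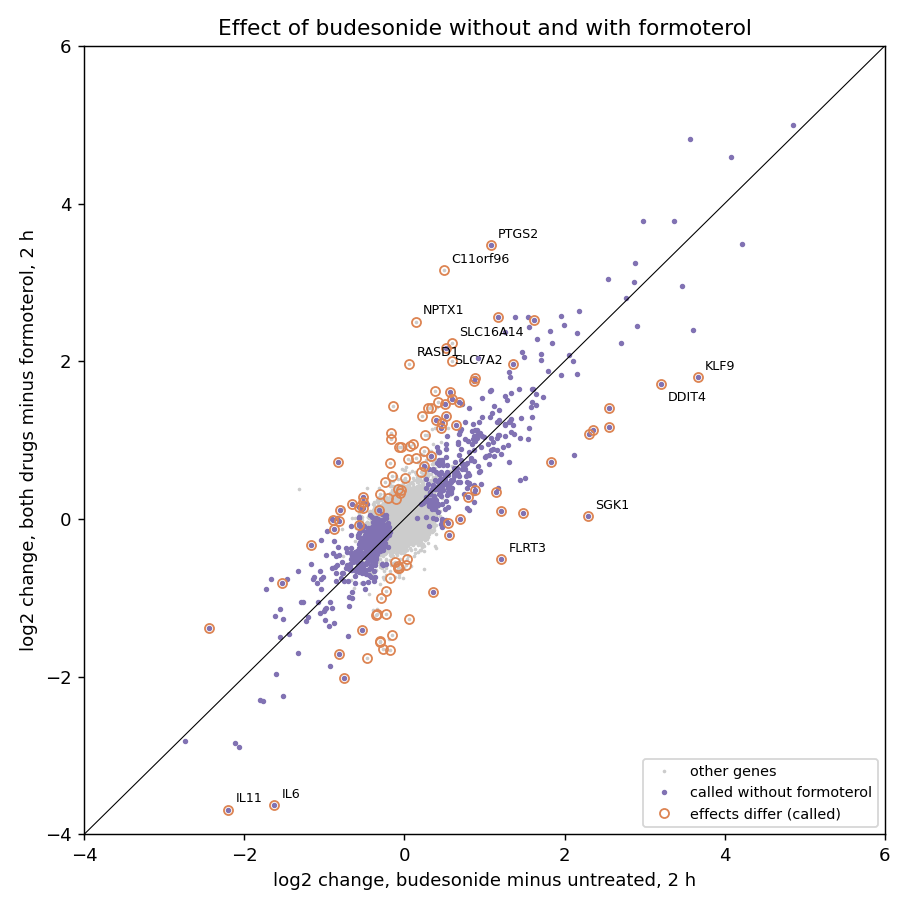
Log2 change with budesonide at 2 h in cells without formoterol (horizontal axis) and with formoterol (vertical axis), 1 dot per gene, with the line of equal change. Purple dots are the 715 genes called without formoterol and orange circles the 107 whose effects differ. SGK1 lies at 2.29 and 0.036, far below the line, and PTGS2 at 1.08 and 3.47, above it.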

How the data were processed

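RNA was hybridised to Affymetrix arrays. What the authors deposited is a log2 signal for each probe set, made with RMA (which corrects background, normalizes and combines probes) per the submitters' processing notes. The RMA version, and whether one normalization covered the whole series, are not given in the sources used here. A joint normalization would hide a shift shared by most genes. There is no read depth, and precision is set by the number of arrays.

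Of 49395 probe sets, 44994 had 1 gene symbol in the platform annotation, updated through gene identifiers for 44967, while 1832 had several and 2569 none and were left out. A gene's probe set was the one brightest on average across the series, giving 18132 genes, 11735 with several probe sets. A single limma model (3.58.1, R 4.3.3, with version 1.17.8 of data.table) held 16 group means over 64 arrays, with 48 residual degrees of freedom and an intensity trend. Calls were two-sided Benjamini-Hochberg adjusted p under 0.05. No arrays held identical values. Figures were drawn with matplotlib 3.10.9 and pandas 2.3.3 in Python 3.11.15. The code was tested on simulated data.

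The 20 highest and 20 lowest changes were named among called genes changed at least 2-fold whose groups did not overlap and whose higher group mean reached 4.90, the median of the deposited values. For each difference between times or with formoterol, up to 6 called genes in each direction were named, and list members could be named too. Members and lists were chosen with earlier results of these data known.

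Same-numbered arrays deviated together: their deviations correlated at 0.323 to 0.545 for budesonide and untreated cells at 2 h, and at 0.269 to 0.575 over the 24 pairs of all 4 groups at 2 h. The numbers thus pair these arrays, though the labels do not say what they share. The reported fit has no block, and single genes given as called or not called refer to it unless another fit is named. Counts with the replicate block are given beside most 2 h counts where they differ. The 16 alternatives for each call were the block, a fit to the compared arrays alone, centring of arrays on their medians, a second quantile normalization, removal of dim genes, no trend, the mean of probe sets, omission of replicate 3 at 2 h, and omission of each of the 8 arrays.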

Additional observations from a re-analysis of the deposited data

Results flagged for a closer look

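In 288 groups of 4 arrays, 1 array stood apart from the other 3 in 22 cases, by a gap above the 95% critical value of Dixon's test. Chance alone marks about 1 in 20 such groups. Replicate 3 held 9 of the 22 cases, replicate 2 held 7, replicate 4 held 4 and replicate 1 held 2. Untreated replicate 3 was the highest of its group for EDN1 (7.49), NFIL3 (7.94) and PLK2 (9.42) and the lowest for EGR1 (7.02) and PIK3R1 (6.43). Budesonide replicate 3 was the highest for ADAMTS1 (9.50) and DDIT3 (5.45) and the lowest for CDKN1A (9.84) and TXNIP (10.6). Untreated replicate 2 was the highest for CD200 (5.52) and TNFAIP3 (5.71) and the lowest for ADAMTS5 (9.78) and HAS3 (4.05). Budesonide replicate 2 was the highest for GLUL (11.65), IL1R1 (4.09) and PLA2G4A (5.10). Replicate 4 stood apart for AURKA (10.9, budesonide, highest), EPHA5 (4.57, budesonide, lowest), PTGS2 (2.39, untreated, lowest) and TSC22D3 (6.77, untreated, highest). Budesonide replicate 1 was the highest for KLF10 (9.18) and the lowest for GADD45B (11.55).

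The change with budesonide differed between times by limma's test of the difference. From 1 to 2 h it grew for FGD4 (2.09), UBE2QL1 (1.83), CRISPLD2 (1.82), FOXO1 (1.67), EXPH5 (1.5) and TGFBR3 (1.34). It moved lower for ADAMTS5 (-1.10), RAB30 (-1.11), PLCXD2 (-1.13), TNFRSF11B (-1.27) and CCL2 (-1.51). From 2 to 6 h it grew for CNR1 (4.74), MAP2 (3.80), CACNA2D3 (3.71), PLA2G4A (3.15), RERG (2.92) and SLC16A12 (2.90). It moved lower for FRMD4B (-2.03), EPHA5 (-2.11), NPPB (-2.18), F3 (-2.26), EVA1A (-2.32) and KLF4 (-2.38).

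With formoterol present the change with budesonide at 2 h was higher for C11orf96 (2.67), PTGS2 (2.39), NPTX1 (2.36), RASD1 (1.91), SLC7A2 (1.64) and SLC16A14 (1.64). It was lower for IL11 (-1.48), DDIT4 (-1.5), FLRT3 (-1.72), KLF9 (-1.87), IL6 (-2.0) and SGK1 (-2.25). All values are differences of log2 changes.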

How the results depend on the processing

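Of the 715 calls at 2 h, 314 were kept in all 16 alternatives, 141 of the 145 changed at least 2-fold and 173 of the 570 changed by less. No called gene changed sign. The exceptions among the 145 were KRTAP2-3, NDRG1, SHISA2 and SMAD6. With the replicate number as a block the calls rose to 1379 (all 715 kept), to 1219 for budesonide with formoterol, to 229 for the difference with formoterol, to 209 for 1 against 2 h and to 1945 for 2 against 6 h. Same-numbered budesonide and untreated arrays correlated at 0.0704 to 0.362 at 1 h (mean 0.238) and at 0.0902 to 0.4145 at 6 h (mean 0.239). The mean at 2 h was 0.442, and pairing at 1 and 6 h was not settled. The compared arrays fitted alone gave 436 calls at 2 h and 65 for the difference with formoterol, with fewer residual degrees of freedom. Leaving out each array in turn gave 559 to 674 calls at 2 h, 136 to 152 of at least 2-fold, 618 to 707 with formoterol, 82 to 110 for the difference with formoterol, 46 to 74 for 1 against 2 h and 750 to 963 for 2 against 6 h. All other alternatives stayed within 1.5 times these counts. Where a named gene's call was lost, the cause was not tested. Genes near background and small changes are limited by signal and by 4 arrays per group.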

Other observations

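A few genes of the cell's adhesions and zinc balance changed by less than 2-fold. VCL, which encodes vinculin of focal adhesions, was at 11.04, 11.04, 11.07 and 10.78 in untreated cells and at 11.55, 11.69, 11.71 and 11.41 with budesonide. All treated arrays lay above all untreated ones, and the change was 0.61 ± 0.080 (limma adjusted p = 4.3e-08). THBS1, or thrombospondin, a matrix protein that activates TGF-beta, rose by 0.62 ± 0.14. Of the 17 actin cytoskeleton genes 3 rose and 1 fell, of which FHL2 and SRF, the 1 that fell, did not keep their calls in all 16 alternative fits, and ACTB, the beta-actin gene, with a change of 0.011 ± 0.093, was not called. SLC30A1, which carries zinc out of the cell, was at 10.44, 10.50, 10.29 and 10.45 untreated and at 9.99, 9.95, 9.82 and 9.86 with budesonide. It fell with a change of -0.51 ± 0.068 while the 4 metallothionein genes named above rose. IER5L fell with a change of -0.81 ± 0.14, the repressor gene ZBTB21 with one of -0.50 ± 0.098 and CDKN2D, an inhibitor of CDK4, with one of -0.36 ± 0.080.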
